A study of Mus musculus with 8 samples.

Results

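Growth factor receptors of myogenic cells and the genes that restrain their signal were followed through Septin9 depletion. The 10 genes were taken by their symbols from the raw count table, which holds 42391 gene entries, and all 10 passed the filter on low counts in every comparison. They are the FGF receptors Fgfr1 and Fgfr4, the HGF receptor Met, the EGF receptor Egfr, the PDGF receptor Pdgfra, the inhibitors Spry1, Spry2 and Spred1, the ERK phosphatase Dusp6 and the transcription factor Etv5. RNA came from wild-type mouse C2C12 cells, an immortal myoblast line that fuses to myotubes, and from primary myoblasts of mouse muscle. A siRNA against Septin9 gave the Septin9-deficient samples and a non-targeting one the controls, with 2 replicates in each of the 4 groups. C2C12 cells were transfected with siRNA at 50 nM, grown with 10% FCS and collected 60 h later, of which the last 12 h were in differentiation medium. Primary myoblasts were collected 48 h after transfection in proliferation medium with 20% FCS, 10% HS, chicken embryo extract and 2.5 ng/ml FGFb, which is itself a ligand of the FGF receptors. All 8 samples were thus transfected, and origin, medium and time cannot be told apart between the cell types.

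These receptors are tyrosine kinases that activate RAS and the kinase cascade from RAF through MEK to ERK when a ligand binds. Active ERK induces Etv5 and also its own inhibitors: sprouty and SPRED proteins act on the pathway at or above RAF, and Dusp6 removes phosphate from ERK in the cytoplasm. In muscle, HGF and Met are known for the activation and migration of myogenic progenitors, FGF signals keep myoblasts proliferating, and Spry1 is known for the return of satellite cells to quiescence. Pdgfra is known in muscle as a marker of fibro-adipogenic progenitors, which are not myogenic.

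Between 20898611 and 27223414 reads were counted on genes per sample. Levels are given as CPM, read counts scaled to the size of each library with TMM, and "called" means an adjusted p under 0.05. Septin9 stood at 409 and 435 CPM in the C2C12 controls and at 147 and 185 CPM in the Septin9-deficient cells. In primary myoblasts Septin9 stood at 376 and 473 CPM in the controls and at 208 and 159 CPM after depletion. It fell by 1.36 (SE 0.08) and by 1.21 (SE 0.15) on the log2 scale, with adjusted p = 5.11e-09 and 0.000134 (edgeR quasi-likelihood test with the replicate as a block). The 7 myoblast markers summed to between 1177 and 1941 CPM in C2C12 cells and between 3013 and 4716 CPM in primary myoblasts. The 9 markers of differentiating muscle summed to between 97.2 and 245 CPM in C2C12 cells at 12 h of differentiation, and to between 3172 and 15912 CPM in the primary myoblasts collected as proliferating. Of the 13 fibroblast markers, between 1 and 3 were at 0 in C2C12 cells and between 0 and 4 in primary myoblasts. The second primary myoblast experiment stood apart from the first in this list, as given with Pdgfra.

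Promoter sequences are shown for Met and Spry1, which changed in opposite directions after Septin9 depletion, and for Dusp6 and Etv5, which differed together between the 2 experiments on primary myoblasts. RefSeq starts on GRCm38.p6 gave a window for 9 of the 10 genes, Fgfr1 being the other, and each window runs from 250 bases before the start to 50 after it. Capitals mark matches on either strand to the ETS core CCGGAA, the AP-1 motif TGANTCA, the CRE TGACGTCA, the E-box CAGCTG, the GC box GGGCGG and the TATA box TATAAA.
Met, chr6:17463707-17464006, + strand: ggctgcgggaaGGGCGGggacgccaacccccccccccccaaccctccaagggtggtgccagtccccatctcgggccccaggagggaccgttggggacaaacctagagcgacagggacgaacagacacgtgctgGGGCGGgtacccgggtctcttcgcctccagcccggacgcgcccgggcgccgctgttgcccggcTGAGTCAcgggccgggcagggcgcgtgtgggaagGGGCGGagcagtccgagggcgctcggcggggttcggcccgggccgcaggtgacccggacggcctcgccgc
Spry1, chr3:37639697-37639996, + strand: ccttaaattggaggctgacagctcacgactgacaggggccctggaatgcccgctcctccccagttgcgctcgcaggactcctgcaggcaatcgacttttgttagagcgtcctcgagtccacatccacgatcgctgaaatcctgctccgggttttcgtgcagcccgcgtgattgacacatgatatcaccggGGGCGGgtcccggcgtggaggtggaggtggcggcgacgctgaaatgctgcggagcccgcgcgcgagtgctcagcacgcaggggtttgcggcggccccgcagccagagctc
Dusp6, chr10:99262981-99263280, + strand: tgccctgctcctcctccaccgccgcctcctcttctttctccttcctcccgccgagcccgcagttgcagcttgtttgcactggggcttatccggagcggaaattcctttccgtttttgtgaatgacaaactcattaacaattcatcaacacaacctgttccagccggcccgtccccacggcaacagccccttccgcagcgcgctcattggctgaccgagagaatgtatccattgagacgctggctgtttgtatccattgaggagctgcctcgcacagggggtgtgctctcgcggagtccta
Etv5, chr16:22439521-22439820, - strand: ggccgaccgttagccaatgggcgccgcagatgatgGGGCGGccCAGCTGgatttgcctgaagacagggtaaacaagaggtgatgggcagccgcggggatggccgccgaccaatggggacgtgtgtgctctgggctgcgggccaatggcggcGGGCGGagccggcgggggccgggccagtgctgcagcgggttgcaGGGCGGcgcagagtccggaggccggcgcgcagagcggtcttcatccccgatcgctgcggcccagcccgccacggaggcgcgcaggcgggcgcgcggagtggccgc
Met had 1 match to the AP-1 motif and 3 to the GC box, Spry1 had 1 GC box, and Dusp6 had none of the 6 motifs in this window. The first of 2 Etv5 windows had 3 GC boxes and 1 E-box, the form bound by MyoD and myogenin. The second Etv5 window, not shown, had none of the 6 motifs. No matches overlapped in the 4 windows shown. Over 32851 promoters of the same length, 14.9% held the ETS core, 7.81% the AP-1 motif, 1.79% the CRE, 16.3% the E-box, 35.7% the GC box and 13.6% the TATA box. The matches are descriptions of letters, and binding was not measured.

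Per length, the sprouty gene Spry2 and the receptor Fgfr1 had the highest mean levels of the 10 genes in both controls, and Pdgfra the lowest. In the C2C12 controls the mean level was 35.3 RPKM ± 15.2 (SD, n = 2) for Spry2, 29.7 ± 7.74 for Fgfr1, 26.4 ± 18.3 for Fgfr4 and 20.7 ± 2.77 for Met. The samples of neighbours among these 4 overlapped, so their order is not set by the data. Spred1 (14.4 ± 1.55) and Dusp6 (13.6 ± 3.66) overlapped with each other and lay apart from both Met and Spry1. Fgfr4 in replicate 1, at 13.5 RPKM, fell within the range of both. Spry1, Egfr and Etv5 held 3.00, 2.84 and 2.34 RPKM with overlap, and Pdgfra held 1.39 ± 0.451. In the primary myoblast controls Spry2 was at 56.9 ± 9.91 RPKM and stood above Fgfr1 (33.1 ± 3.42) in every sample. Fgfr1 overlapped with Met (31.9 ± 3.85), and so did each neighbour from Met through Dusp6 (24.8 ± 13.5) and Spred1 (15.3 ± 5.61) to Fgfr4 (12.7 ± 0.0588). Below Fgfr4, Etv5 (9.83), Spry1 (6.09) and Egfr (3.81) were separate from one another in both samples, while Pdgfra (1.87 ± 2.48) overlapped with Egfr.

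**Figure D1:**
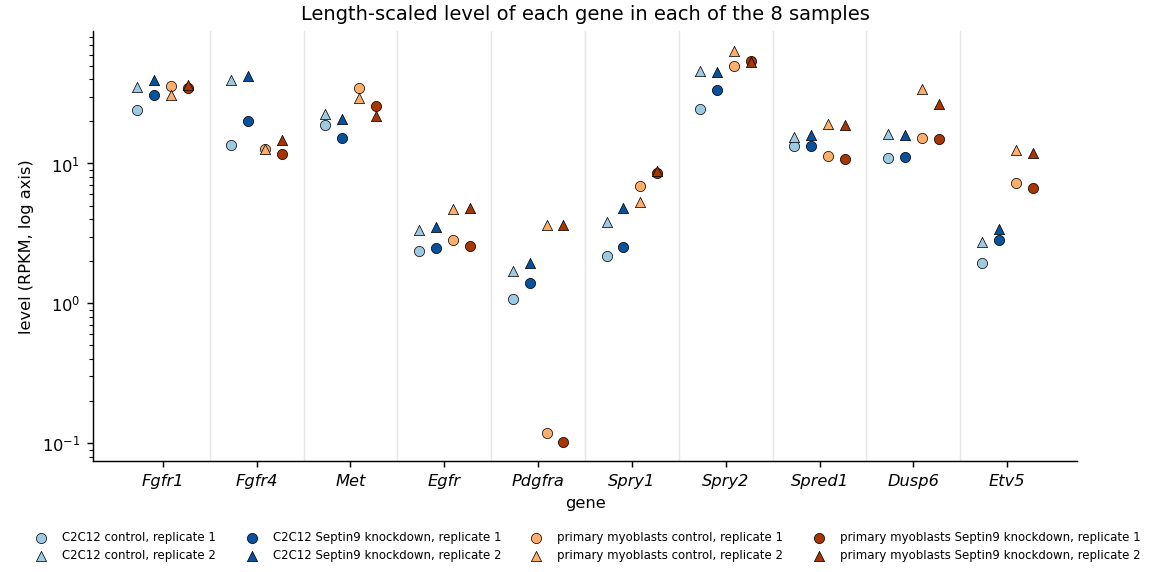
Level of each of the 10 genes in each of the 8 samples, in RPKM on a log axis, with colours for the 4 groups and circles and triangles for replicates 1 and 2. Pdgfra in primary myoblasts spans from 0.102 RPKM in replicate 1 to 3.66 RPKM in replicate 2, the widest spread among the 10 genes.

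Between the controls, primary myoblasts had more Etv5 and more Met than C2C12 cells. Etv5 was at 7.83 and 11.0 CPM in C2C12 cells and at 29.4 and 49.9 CPM in primary myoblasts, a log2 difference of 2.08 (SE 0.34, adjusted p = 0.0139, edgeR). Met was at 128 and 154 CPM against 236 and 199 CPM, a log2 difference of 0.63 (SE 0.18, adjusted p = 0.0487, edgeR). The groups did not overlap for either gene, nor for Fgfr4, Spry1 and Spry2, 5 of 10 genes against 75.1% of all genes tested. Both calls were higher in primary myoblasts, where 34.5% of 17103 genes were called, 18.3% higher and 16.2% lower, so 2 of 10 is near the background. Spry1 had 2.04-fold more in primary myoblasts (log2 1.03, SE 0.34) and Fgfr4 0.484-fold (log2 -1.05, SE 0.51), with adjusted p = 0.0715 and 0.168 (edgeR). Spry1 was called by DESeq2 (adjusted p = 0.0259). Fgfr4 rested on single C2C12 controls, at -0.09 (adjusted p = 0.715) without replicate 2 and -1.64 (adjusted p = 0.0402, edgeR) without replicate 1. Without replicate 2 of the C2C12 controls neither Etv5 (adjusted p = 0.0819, edgeR) nor Met (adjusted p = 0.113) was called, and the same held without their replicate 1. Met was also not called without either primary myoblast control (adjusted p = 0.168 and 0.0594, edgeR).

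In C2C12 cells, Septin9 depletion was followed by a modest rise of Fgfr1 and Fgfr4, and no gene of the 10 was called lower. The FGF receptor Fgfr2, which is not among the 10, was called lower. Its level was 8.83 and 5.00 CPM in controls and 5.59 and 3.55 CPM in Septin9-deficient cells. Fgfr1 stood at 126 and 183 CPM in the controls and at 162 and 208 CPM in the Septin9-deficient cells, in replicates 1 and 2. It was higher within both pairs (log2 ratios 0.36 and 0.18), although the groups overlapped because replicate 2 was higher throughout. Fgfr4, a receptor of the myogenic lineage, stood at 44.8 and 131 CPM against 66.3 and 139.9 CPM. Its rise came mainly from the first pair, with log2 ratios of 0.57 and 0.09. The fit gave 1.20-fold for Fgfr1 (log2 0.26, SE 0.07, adjusted p = 0.0213) and 1.24-fold for Fgfr4 (log2 0.31, SE 0.08, adjusted p = 0.0342, edgeR). These are 2 of 10 genes called, both higher, where 6.75% of the 15814 genes tested were called, 2.64% higher and 4.12% lower. At an unadjusted p under 0.05 they were 6 of 10, where 18.7% of all genes were. With library size as the sole scaling, 716 of 1401 calls over all genes were higher, against 417 of 1068 with TMM. The median log2 fold change was 0.22 over the 10 genes and -0.00 over all genes tested. Both calls held in DESeq2 without a block on the batch-corrected counts (adjusted p = 0.00321 and 0.0302, with 820 of 15911 genes called). Neither held in DESeq2 on the raw counts (adjusted p = 0.175 and 0.256, with 1.79% of all genes called) or without replicate 1 or replicate 2 (adjusted p between 0.0868 and 1 in edgeR).

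The other receptors did not pass the test in C2C12 cells. Met was at 128 and 154 CPM in the controls and at 103 and 142 CPM in Septin9-deficient cells. It was lower within both pairs (log2 ratios -0.31 and -0.12) with overlapping groups, and the fitted log2 fold change was -0.22 (SE 0.07, adjusted p = 0.0785, edgeR). Pdgfra was at 9.42 and 15.01 CPM against 12.2 and 17.1 CPM (log2 0.27, SE 0.11, adjusted p = 0.208). Egfr was at 25.8 and 36.5 CPM against 27.1 and 38.7 CPM (log2 0.07, SE 0.08, adjusted p = 0.686).

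Etv5, one of the direct outputs of FGF signalling through ERK, had the largest fitted value of the 10 genes in C2C12 cells and just missed the threshold. It was at 7.83 and 11.0 CPM in the controls and at 11.5 and 13.8 CPM after depletion, the sole gene of the 10 whose groups did not overlap (25.4% of all genes). The fitted change was 1.34-fold (log2 0.42, SE 0.13, adjusted p = 0.0510, edgeR). The inhibitors gave smaller or unequal values. Spry1 was at 6.37 and 11.0 CPM against 7.37 and 13.9 CPM (log2 0.28, SE 0.14, adjusted p = 0.284). Spry2 was at 51.2 and 96.1 CPM against 69.9 and 93.4 CPM, so that its pairs went in opposite directions (log2 ratios 0.45 and -0.04). Spred1 was at 90.2 and 105 CPM against 89.7 and 108 CPM, and Dusp6 at 30.8 and 45.3 CPM against 31.3 and 44.4 CPM. For both, the fitted log2 fold change was within its SE of 0 (0.01, SE 0.07, and -0.01, SE 0.07). Differentiation markers moved with these values: 6 of 9 were called higher in Septin9-deficient C2C12 cells, where 2.64% of all genes were. These were Myog (log2 1.03), Mymk (1.02), Mymx (1.13), Tnni1 (1.12), Myh3 (0.74) and Actc1 (0.72). DESeq2 called 2 of the 9, where it called 1.79% of all genes. All 9 summed to 97.2 and 179 CPM in controls and to 135 and 245 CPM after depletion. Tnnt2, which was not called, held 80.8 and 97.1 CPM of this in controls and 94.3 and 106 CPM after depletion. Of the 7 myoblast markers, 3 were called higher and 0 lower by edgeR. The part of these markers in the receptor values was not tested.

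**Figure D2:**
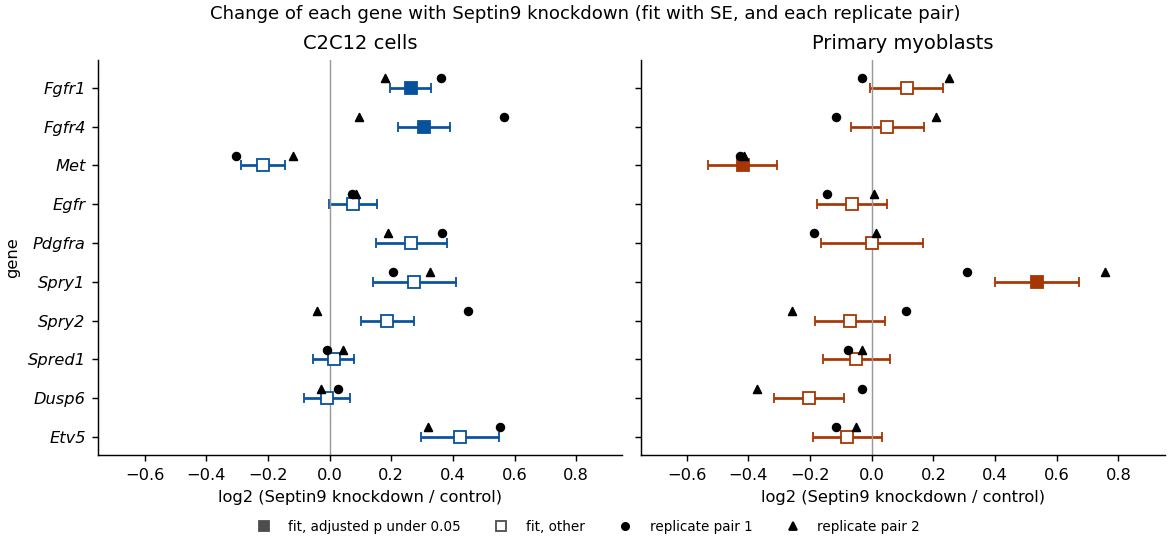
Log2 ratio of Septin9-deficient to control level of each gene in C2C12 cells (left) and primary myoblasts (right). Squares with bars are the fitted log2 fold change and its SE, filled where the adjusted p was under 0.05, and circles and triangles are replicate pairs 1 and 2. Met lies below 0 and Spry1 above 0 in all 4 pairs.

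In primary myoblasts, Spry1 rose and Met fell. Spry1 was at 20.1 and 15.3 CPM in the controls and at 24.9 and 25.9 CPM in Septin9-deficient cells, with 411 to 557 reads per sample. Both Septin9-deficient samples lay above both controls, and the fitted change was 1.45-fold (log2 0.54, SE 0.14, adjusted p = 0.0280, edgeR). The 2 pairs were unequal, with log2 ratios of 0.31 and 0.76, and without replicate 2 the value was 0.31 with adjusted p = 0.234. Met was at 236 and 199 CPM in the controls and at 175 and 149 CPM after depletion, with 3124 to 5489 reads per sample. Here too the groups did not overlap, and the pairs were nearly equal, with log2 ratios of -0.43 and -0.42. The fit placed Met at 0.748-fold of control (log2 -0.42, SE 0.11, adjusted p = 0.0381, edgeR). These are 1 of 10 genes called higher and 1 called lower, where 3.95% and 1.04% of the 17117 genes tested were (4.99% in all), and 2 of 10 genes with separate groups, where 27.8% of all genes had them. Both calls held in DESeq2 without a block on the batch-corrected counts, where 931 of 17083 genes were called. There DESeq2 gave adjusted p = 0.0456 for Spry1 and 0.000131 for Met. Neither call held in DESeq2 on the raw counts (adjusted p = 0.355 for Spry1 and 0.149 for Met, with 1.5% of all genes called). With RLE size factors in edgeR neither was called (adjusted p = 0.0865 and 0.0949). The fitted log2 value of Met was -0.41 without replicate 1 and -0.43 without replicate 2. In fits with a replicate left out, the lone primary pair was assumed to vary like the C2C12 samples.

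None of the other 8 genes was called in primary myoblasts by edgeR or DESeq2, and none had an unadjusted edgeR p under 0.05, as 16.7% of all genes did. Fgfr1 was at 185 and 160.0 CPM against 181 and 191 CPM, and Fgfr4 at 42.2 and 42.5 CPM against 38.9 and 49.1 CPM. For both of these the first pair was lower and the second higher, and the fitted log2 fold changes were 0.11 (SE 0.12) and 0.05 (SE 0.12). Egfr was at 31.3 and 52.1 CPM against 28.3 and 52.4 CPM (log2 -0.06, SE 0.11). Among the inhibitors, Spry2 was at 104 and 133 CPM against 112 and 112 CPM, and Spred1 at 76.9 and 131 CPM against 72.9 and 128 CPM. Dusp6 was at 42.7 and 96.0 CPM against 41.7 and 74.2 CPM, a log2 fold change of -0.20 (SE 0.11, adjusted p = 0.396, edgeR). Etv5 was at 29.4 and 49.9 CPM against 27.1 and 48.1 CPM (log2 -0.08, SE 0.11, adjusted p = 0.801). For Egfr, Spred1, Dusp6 and Etv5 the step between replicates exceeded the step between siRNAs. Dusp6 shares its locus with the listed lncRNA Gm34921, which took 2341 reads where Dusp6 took 9701, both over all 8 samples. Differentiation markers moved here as well: all 9 were called higher in Septin9-deficient primary myoblasts, with log2 fold changes from 0.73 (Tnnt2) to 1.14 (Ckm), where 3.95% of all genes were. Of the 7 myoblast markers, Pax7 (-0.44), Myf5 (-0.78) and Vcam1 (-0.44) were called lower, Des (0.57) was called higher, and Myod1, Cdh15 and Itga7 were not called. The part of these shifts in the Met and Spry1 values was not tested.

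Met was lower in all 4 replicate pairs and Spry1 higher in all 4, 1 gene of 10 each, against 13.6% and 12.7% of 15073 genes, those tested in each cell type. In C2C12 cells 6 of the 10 genes were higher in both pairs, and in primary myoblasts 4 of the 10 were lower in both. The share of all genes with either pattern was not counted, so these 2 counts are not read as a trait of the 10 genes. No gene of the 10 differed in its response between the cell types in the interaction test, in which 0 of 17918 genes were called (0%) by edgeR, 1469 (8.2%) had an unadjusted p under 0.05 and 21 (0.117%) were called by DESeq2. The largest difference was that of Etv5, -0.51 (primary minus C2C12, SE 0.14, adjusted p = 0.401, edgeR). For Met the difference was -0.21 (SE 0.12) and for Spry1 0.25 (SE 0.19), so a different response of these genes was not shown.

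For 9 of the 10 genes in C2C12 cells and 7 of the 10 in primary myoblasts, the fitted difference between experiments was larger than that between siRNAs. The share of all genes with a larger difference between experiments was not counted. Over all genes, edgeR called 35.7% between experiments in C2C12 cells and 24.5% in primary myoblasts. Between siRNAs it called 6.75% and 4.99%, so these counts are not shown to be particular to the 10 genes. This comparison of replicate 2 with replicate 1, from the block term of the same fits, was chosen after its values were seen. Each experiment is 1 control and 1 Septin9-deficient sample, so its p-values speak of these samples alone. In C2C12 cells all 10 genes were higher in replicate 2 (35.7% of all genes were called, 17.4% higher and 18.3% lower), with log2 differences from 0.22 for Spred1 to 1.28 for Fgfr4 and a median of 0.49. Fgfr4 was 2.92-fold higher in the control of replicate 2 and 2.11-fold higher in its Septin9-deficient sample. Differentiation markers moved with them, 8 of 9 being called higher in replicate 2 and all 9 having a log2 difference above 0. Myog was at 5.19 and 37.5 CPM in the controls. Their part in the receptor differences was not tested.

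Pdgfra was nearly absent from the first primary myoblast experiment and present in the second. It took 24 reads in the control and 20 in the Septin9-deficient sample of replicate 1 (1.03 and 0.896 CPM), and 853 and 672 reads in those of replicate 2 (31.7 and 32.1 CPM). The samples of each experiment lay close together, 30.8-fold apart from the other experiment in controls and 35.8-fold in Septin9-deficient cells. The fitted difference was 5.06 on the log2 scale (SE 0.19, adjusted p = 5.85e-13, edgeR), against a change with Septin9 depletion of 0.00 (SE 0.17). Levels of Pdgfra in primary myoblasts therefore have no common value, and its comparison with C2C12 cells went from 0.43 (adjusted p = 0.817) to -3.56 (adjusted p = 0.00792, edgeR) on the log2 scale without replicate 2 of the primary controls, and to 1.36 (adjusted p = 0.0430) without their replicate 1. In bulk RNA, more cells of one kind and more RNA per cell cannot be told apart.

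Fibroblast markers moved with Pdgfra. All 9 fibroblast markers tested, of 13 listed, were higher in replicate 2 of primary myoblasts, where 24.5% of all genes were called, 12.5% higher and 11.9% lower. Col1a1 was at 6.83 and 4.84 CPM in replicate 1 and at 249 and 378 CPM in replicate 2, Dcn at 0.258 and 0.313 against 13.3 and 16.1 CPM, and Thy1 at 0.516 and 0.985 against 8.55 and 14.3 CPM. The list summed to 367 and 336 CPM in replicate 1 and to 880 and 1043 CPM in replicate 2, in which Col3a1 made the largest part, while C2C12 cells held between 2517 and 3246 CPM. Pdgfrb, the other PDGF receptor, went the same way, from 3.31 and 2.46 CPM to 43.1 and 65.0 CPM. Differentiation markers went the other way, with 9 of 9 lower in replicate 2. The part of these shifts in the Pdgfra difference was not tested.

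Egfr, Spred1, Dusp6 and Etv5 also stood higher in the second primary myoblast experiment, which with Pdgfra makes 5 of 10 genes called, all higher, where 24.5% of all genes were called, 12.5% higher and 11.9% lower. The log2 differences were 0.84 (SE 0.11) for Egfr, 0.81 (SE 0.11) for Spred1, 1.02 (SE 0.11) for Dusp6 and 0.82 (SE 0.11) for Etv5, with adjusted p from 1.78e-06 to 2.26e-05 (edgeR). In controls and Septin9-deficient cells alike the 2 samples of replicate 2 lay above those of replicate 1 for each of these 4 genes. Met, Fgfr1, Fgfr4, Spry1 and Spry2 were not called between the experiments, with log2 differences from -0.22 to 0.20. The same experiment held more of other feedback inhibitors (9 of 14 called higher, 0 lower). Of other ERK-induced genes, 10 of 16 were called higher and 1 lower. Among the inhibitors were Dusp5 (log2 1.00), Dusp7 (0.87), Lrig1 (0.86), Spry4 (0.71) and Dusp4 (0.64), and among the induced genes Egr2 (1.72), Ier3 (1.65), Egr3 (1.14), Etv4 (0.85) and Etv1 (0.72). Egr1, an immediate ERK target, was at 102 and 98.3 CPM in replicate 1 and at 96.2 and 107 CPM in replicate 2, without such a step. Growth factor genes were called higher there too: 9 of the 21 tested, including Fgf2 (log2 2.88), Hgf (3.21), Ereg (3.82) and Hbegf (1.62). Another 3 were called lower (Fgf5, Fgf6 and Fgf21). The genes named here were picked for display after their values were seen. The part of the fibroblast and differentiation markers in the differences was not tested.

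**Figure D3:**
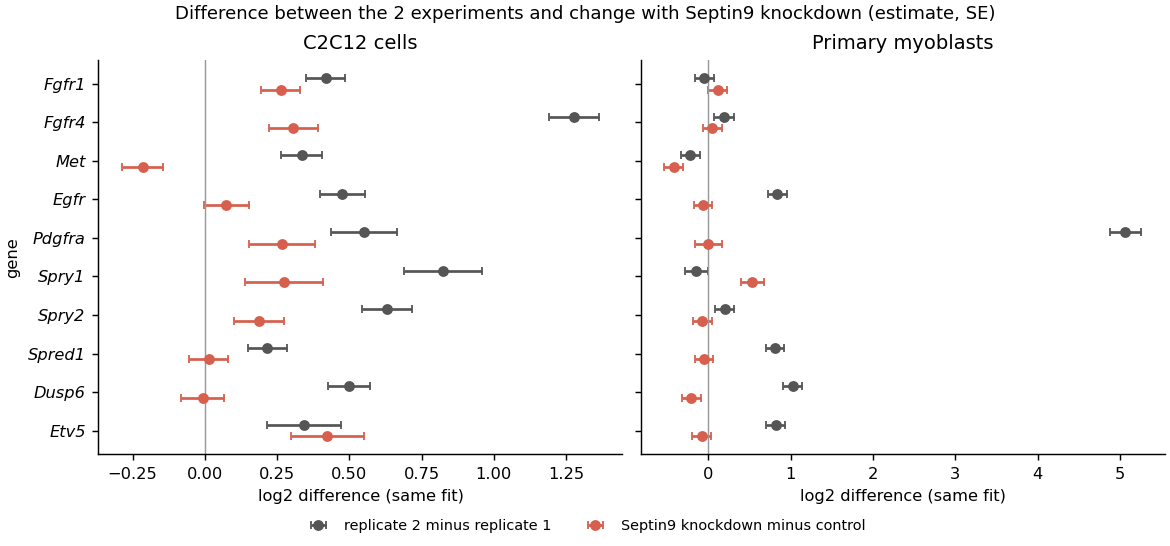
Log2 difference of each gene between experiments (grey, replicate 2 minus replicate 1) and between siRNAs (red, Septin9-deficient minus control), from one fit per cell type, with bars of 1 SE. In C2C12 cells all 10 grey points lie above 0, and in primary myoblasts Pdgfra lies at 5.06.

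**Figure D4:**
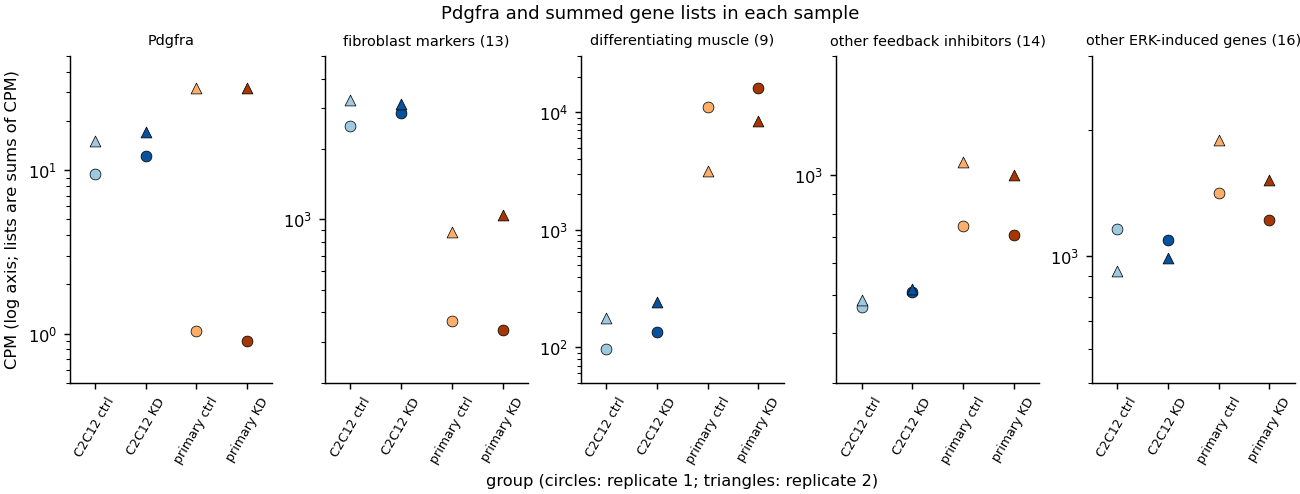
Pdgfra (CPM) and the summed CPM of 4 gene lists in each sample, on log axes with circles for replicate 1 and triangles for replicate 2. In primary myoblasts Pdgfra, the fibroblast list and both ERK-response lists stand higher in replicate 2 and the differentiation list stands lower for the same siRNA.

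The other 90 genes of the pathway comprise ligands, receptors, cascade members, feedback inhibitors and ERK-induced genes. In C2C12 cells 9 of the 81 tested were called after Septin9 depletion (11.1%, 3 higher and 6 lower), where 6.75% of all genes were called, 2.64% higher and 4.12% lower. Among ligands Fgf5 was called higher (log2 1.33), at 0.546 and 0.478 CPM in controls against 1.77 and 0.919 CPM. Lower calls among ligands were Fgf7 (log2 -0.41), Nrg1, a neuregulin that binds ERBB receptors (-0.64), and the EGF receptor ligand Tgfa (-1.21). Nrg1 stood at 53.8 and 35.5 CPM in controls and at 36.4 and 21.6 CPM after depletion, whereas Tgfa never exceeded 2.55 CPM. Of 12 other receptors and co-receptors, Sdc1, a heparan sulfate co-receptor, was called higher (0.30) and Fgfr2 lower (-0.59). Of the 23 adaptors and cascade members, Map2k1, which encodes the ERK kinase MEK1, was the sole gene called. It was at 81.6 and 82.4 CPM in controls and at 51.8 and 57.3 CPM after depletion, with no overlap (log2 -0.59, SE 0.07, adjusted p = 3.04e-05, edgeR). In primary myoblasts Map2k1 was at 119 and 121 CPM against 109 and 87.0 CPM (log2 -0.30, SE 0.11, adjusted p = 0.151). Of the 14 other feedback inhibitors, Errfi1, an inhibitor of EGF receptors, was called higher (0.30) and Il17rd, an inhibitor of FGF signalling, lower (-0.30), and none of the 16 other ERK-induced genes was called by edgeR or DESeq2 (0 at an unadjusted edgeR p under 0.05). The median log2 fold change ran from -0.06 for the cascade to 0.13 for the feedback inhibitors, beside -0.00 for all genes. The count of 9 fell to 3 in DESeq2 and to 1 without either replicate.

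In primary myoblasts 4 of 86 tested pathway genes were called after Septin9 depletion (4.65%), where 4.99% of all genes were, so their share was near the background. Erbb3, the receptor that binds neuregulins, was at 88.0 and 30.9 CPM in controls and at 126 and 105 CPM after depletion (log2 1.13, SE 0.19, adjusted p = 0.00186, edgeR). Fgfr3 was at 8.46 and 2.31 CPM against 15.3 and 5.92 CPM (log2 1.06, SE 0.19, adjusted p = 0.00295). Within each experiment the Septin9-deficient sample was the higher one for both receptors. The ligand Fgf21 rose (log2 0.66), at 69.9 and 8.85 CPM in controls against 86.6 and 19.5 CPM, and Myc fell (log2 -0.41), at 50.8 and 79.6 CPM against 38.8 and 58.8 CPM. None of the 23 cascade genes and none of the 14 other feedback inhibitors was called by edgeR or DESeq2. At an unadjusted edgeR p under 0.05 they were 6 and 0, where 16.7% of all genes were. That level was also reached by 3 of 21 ligands, 6 of 12 other receptors and 6 of 16 ERK-induced genes. The median log2 fold change was -0.09 for the feedback inhibitors, 3 of 14 being above 0, and -0.15 for the ERK-induced genes, 4 of 16 being above 0, beside 0.01 for all genes. The count of 4 became 1 in DESeq2, 16 without replicate 1 and 9 without replicate 2.

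Among 17783 genes of no list, the one whose log2 CPM followed each receptor most closely over the 8 samples was Adgra2 for Pdgfra (Pearson r = 0.995), Gfra1 for Fgfr4 (0.994), Edaradd for Met (0.989), D630003M21Rik for Fgfr1 (0.973) and Dock4 for Egfr (0.973). For the inhibitors and Etv5 it was Rgs16 for Etv5 (0.993), the second entry of Igtp for Spry1 (0.992), Nfx1 for Spry2 (0.988), Nek6 for Dusp6 (0.983) and Pde4a for Spred1 (0.982). Within the 10 genes the highest values were 0.943 between Egfr and Dusp6 and 0.924 between Pdgfra and Spred1. These are descriptions over 8 samples that fall into 2 cell types and share libraries, and each is the best of that many genes.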

How the data were processed

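Poly(A) RNA of 8 samples was sequenced. The authors mapped reads to GRCm38.p6 with STAR 2.7.2, counted them per gene with featureCounts 2.0.1 and deposited raw counts. They also deposited for each cell type a signal, the ComBat-Seq batch-corrected counts divided by DESeq2 size factors. Its values above 0 were whole multiples (tolerance 0.01) in 100.0% of cases, and the whole reads were used for an alternative. That alternative was fitted without a block, and its p-values take no account of the correction made before it. The strand setting of counting is not given in the sources used here, so overlapping genes (Gm31288 and Gm16159 with Fgfr1, Gm34921 with Dusp6) were not separated. Of the raw counts, 16 broken lines were left out.

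Genes were kept by filterByExpr, scaled by TMM and tested per cell type with edgeR 4.0.16 in R 4.3.3 (quasi-likelihood test, replicate number as a block, Benjamini-Hochberg over all genes tested). The controls were compared without a block, and responses by the interaction term over 8 samples. The pairing comes from the labels' replicate numbers and the study's methods, which remove batch effects between experiments. Deviations from group means of same-numbered samples correlated at 0.678 in C2C12 cells and 0.819 in primary myoblasts. Replicates are labelled as such, and separate cultures are not stated in the labels. CPM are TMM-scaled over 8 samples, log2 pair ratios use a prior count of 2, and RPKM divide CPM by GENCODE M21 exon length, which may differ from the models counted, since the study's methods name another Gencode release. Standard errors come from the fold change and F statistic.

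The 10 genes, the 90 pathway genes and the 47 marker genes were chosen with earlier results of these data known. Named are the 10 genes, Septin9 and part of the marker genes called. Pathway genes called are named up to 6 per list with the smallest p in each cell type. For each of the 10 the most correlated gene of no list is named, with others stated as chosen after their values were seen. Marker calls given as counts were 3 of 7 myoblast markers higher and 2 of 9 fibroblast markers lower in Septin9-deficient C2C12 cells. Over all genes 2.64% were called higher there and 4.12% lower. In Septin9-deficient primary myoblasts 1 of 9 fibroblast and 1 of 3 pericyte markers were called higher, where 3.95% of all genes were. Endothelial, immune, pericyte and Schwann markers summed to at most 4.77, 9.79, 124 and 2.41 CPM in any sample. Alternatives were RLE or library-size scaling, no filter or 10 counts in every sample, no block, DESeq2 1.42.0, DESeq2 on the batch-corrected counts, one fit over all 8 samples, a minimum of 1.5-fold, adjusted p under 0.01 and each replicate left out.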

Additional observations from a re-analysis of the deposited data

Results flagged for a closer look

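The response of Etv5 to Septin9 depletion differed in direction between the cell types in every replicate pair. Both C2C12 pairs were higher (log2 ratios 0.55 and 0.32) and both primary myoblast pairs were lower (-0.12 and -0.05). The fitted change was 0.42 (SE 0.13) in C2C12 cells and -0.08 (SE 0.11) in primary myoblasts, the latter within its SE of 0. An opposite response was thus not shown. The difference was -0.51 on the log2 scale (primary minus C2C12), with an unadjusted p of 0.00570 and an adjusted p of 0.401 (edgeR interaction test over 17918 genes), so it did not pass the correction. It was the largest of the 10 genes, and 8.2% of all genes had an unadjusted p under 0.05. Over the alternatives and left-out replicates it stayed between -0.40 and -0.64, with adjusted p from 0.0943 to 1.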

How the results depend on the processing

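Of the values of single genes under the alternatives, 350 kept their direction and side of the threshold, 27 lost the call, 12 gained one and 21 changed sign. In C2C12 cells 2 of the 10 genes were called, 4 with no filter and 0 without the replicate block, in DESeq2, with all 8 samples in one fit, at a minimum change of 1.5-fold, at adjusted p under 0.01 and without either replicate. The 9 pathway genes called there became 0 without the block, 3 in DESeq2, 2 with all 8 samples in one fit, 5 at the fold threshold, 4 at adjusted p under 0.01 and 1 without either replicate. In primary myoblasts 2 of the 10 genes were called, and 0 with RLE size factors, with library size alone, without the replicate block, in DESeq2, at the fold threshold and at adjusted p under 0.01, with 1 to 3 when a replicate was left out. The 4 pathway genes called there became 1 with RLE size factors, 1 with library size alone, 7 with no filter, 0 without the block, 1 in DESeq2, 7 in DESeq2 on the batch-corrected counts, 2 at adjusted p under 0.01 and 9 to 16 when a replicate was left out. Where a replicate was left out, the lone pair was assumed to vary like the other cell type. For the difference between cell types 0 to 1 genes were called when a replicate was left out, the 1 being Spry2. Between the controls 2 genes were called, 1 with library size alone, 4 with no filter, 1 with the replicate block, 0 at adjusted p under 0.01 and 0 to 3 when a replicate was left out.

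Without the block no gene was called over all genes in either cell type (edgeR, 372 and 378 at an unadjusted p under 0.05), against 1068 in C2C12 cells and 854 in primary myoblasts with it. Over all genes in C2C12 cells DESeq2 called 283, the fit of 8 samples 111, and leaving out a replicate 98 to 181. In primary myoblasts RLE size factors gave 295, library size alone 236, DESeq2 256 and leaving out a replicate 1277 to 2020. The deviations of same-numbered controls of the 2 cell types correlated at -0.144, so their numbers were not taken as pairs. Crossing the numbers, added after seeing the data, called 3 of the 10 genes and 6645 genes in all, against 5901.

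Signs changed for the following values. In C2C12 cells Spred1 gave -0.0052 with no filter and Dusp6 0.015 with library size alone. Pdgfra in primary myoblasts gave -0.024 with library size alone, -0.028 in DESeq2, -0.067 in DESeq2 on the batch-corrected counts and -0.014 with all 8 samples. Between the controls Pdgfra gave -0.83 with the replicate block and -0.75 with the crossed block. With a replicate left out, log2 values in C2C12 cells ran from -0.040 to 0.45 for Spry2, from -0.0096 to 0.044 for Spred1 and from -0.028 to 0.025 for Dusp6. In primary myoblasts they ran from -0.036 to 0.26 for Fgfr1, from -0.12 to 0.22 for Fgfr4, from -0.15 to 0.014 for Egfr, from -0.21 to 0.023 for Pdgfra and from -0.25 to 0.11 for Spry2. The Fgfr1 difference between cell types ran from -0.29 to 0.0038. Between the controls the values ran from -0.093 to 0.45 for Fgfr1, from -3.56 to 1.36 for Pdgfra and from -0.35 to 0.41 for Spred1. The cause of these changes was not tested. Depth was lowest for Pdgfra in primary replicate 1, with 20 and 24 reads, and every other value of the 10 genes rested on at least 140 reads.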
